A study of Mus musculus with 2 samples.

Results

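Histone modifiers and chromatin remodellers were examined in mouse bone marrow neutrophils that had been cultured with PBS or with tumor exosomes. The genes were taken by name: every listed feature whose symbol begins with Kdm, Hdac, Setd, Chd, Smarc or Kat followed by the family's numbering, leaving out Kdm5c and Kdm5d. The names matched 66 of 35522 features, and 56 of them reached an RPKM of 0.25 in both libraries, as 9698 genes did in all. RPKM is a read count scaled to the kilobases of exon in a gene and to the depth of its library. The 56 genes were 13 lysine demethylases (Kdm), 10 histone deacetylases (Hdac) and 9 SET domain methyltransferases (Setd). The others were 9 genes with the chromodomain helicase name (Chd), Chd1l among them, 11 members of the Smarc remodelling subunits and 4 lysine acetyltransferases (Kat).

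The cells were sorted from the marrow of BALB/c mice as CD11b-positive, high for Ly-6G and low to negative for Ly-6C, and all of them were kept in RPMI-1640 with 10 ng/ml GM-CSF, a myeloid growth factor. The PBS-treated culture received PBS for 3 days. The SDCSC exosome-treated culture received tumor exosomes at 20 μg/ml for 3 days, and per the study's methods these came from sphere-derived cancer stem cells (SDCSCs) of the murine colon carcinoma line CT26. With 1 library in each group there was no replicate spread and no test of the treatment was possible, and a difference between the libraries cannot be told apart from a difference between cultures. Whether cells of several animals were pooled is not stated in the sources used here.

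Histone modifying enzymes add or remove acetyl and methyl groups on the tails of the proteins that DNA is wound around, and so set how open a gene is to transcription. Chromatin remodellers use ATP to slide, evict or respace those histone cores. A neutrophil has a compact, lobed nucleus, and its maturation is accompanied by wide condensation of chromatin and by loss of expression of many early myeloid genes.

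The estimated depth was 65.9 M mapped reads (M, mega) in the PBS library and 79.2 M in the exosome library. The median log2 ratio (exosomes over PBS) of all 9698 genes kept was 0.53, a fold of 1.44, so ratios are given below as measured and, where a direction depends on it, relative to this median. Of 12 neutrophil markers, 11 were lower with exosomes, 10 of them past 2-fold, and the summed RPKM went from 84902 to 30855. All 12 monocyte and macrophage markers were higher with exosomes, with a summed RPKM of 165 in PBS and 463 with exosomes. The complement genes C1qa, C1qb and C1qc, which mark macrophages, were at 0.18, 0.30 and 0.27 RPKM in PBS and at 1.42, 2.30 and 3.79 with exosomes, while Emr1 went from 20.9 to 152 RPKM and Csf1r from 58.1 to 153. The 5 B cell markers summed to 108 RPKM in PBS and 66.9 with exosomes, the 6 T cell markers to 57.8 and 7.31 with Cd3d alone at 56.4 and 7.02 and Trbc1 listed at 0 in both, the 5 erythroid markers to 1.57 and 0.145 and the 4 dendritic cell markers to 0.727 and 0.490. In bulk RNA, fewer cells of a type and less RNA per cell cannot be told apart, and the part of these markers' cells in the results that follow was not tested.

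Of the 56 chromatin genes, 15 were at least 2-fold higher with exosomes and 1 was at a ratio of 0.5 or less. The background was 31.5% of all genes kept at a ratio of at least 2 and 5.62% at a ratio of at most 0.5, and the chromatin genes stood at 26.8% and 1.79%. Their median log2 ratio was 0.43, which lay 0.10 below the median of all genes, so the group as a whole was above 0 on the deposited scale and slightly below 0 once the median of all genes was removed. On the deposited scale 40 of the 56 had a higher RPKM with exosomes and 16 a lower one, against 7079 and 2601 of all 9698 genes. Of the 56, 26 lay above the median ratio of all genes. At a limit of 1.5-fold, 24 were higher and 5 lower, against 47.3% and 11.3% of all genes. At 4-fold, 1 was higher and 0 were lower, against 8.52% and 1.14% of all genes. The chromatin genes as a group passed each of these limits at a share no higher than that of all genes, and what follows describes the families and the related members within them.

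The Smarc family had the most genes past the limit, with 8 of 11 at a ratio of 2 or more, among them catalytic and core subunits of the SWI/SNF complex, and 0 at 0.5 or below. Their median log2 ratio was 1.23, which was 0.70 above the median of all genes, and a single factor per library cannot change that difference. Relative to genes of the same level the Smarc median was 0.64, and 1 of the 11 genes, Smarcad1, stayed past 2-fold. The Hdac genes had 3 of 10 past 2-fold and a median of 0.69, the Setd genes 2 of 9 and 0.37, and the Chd genes 1 of 9 higher, 1 of 9 lower and a median of 0.31. The Kat genes had 0 of 4 past 2-fold and a median of 0.15, and the Kdm genes 1 of 13 and a median of 0.03. Relative to the median of all genes the Kdm family was at -0.50, Kat at -0.38 and Chd at -0.22, and the order of Kdm and Kat turned with level centring, where Kdm was at -0.34 and Kat at -0.42. The 45 chromatin genes outside the Smarc family had 7 higher, 1 lower and a median log2 ratio of 0.35.

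**Figure D1:**
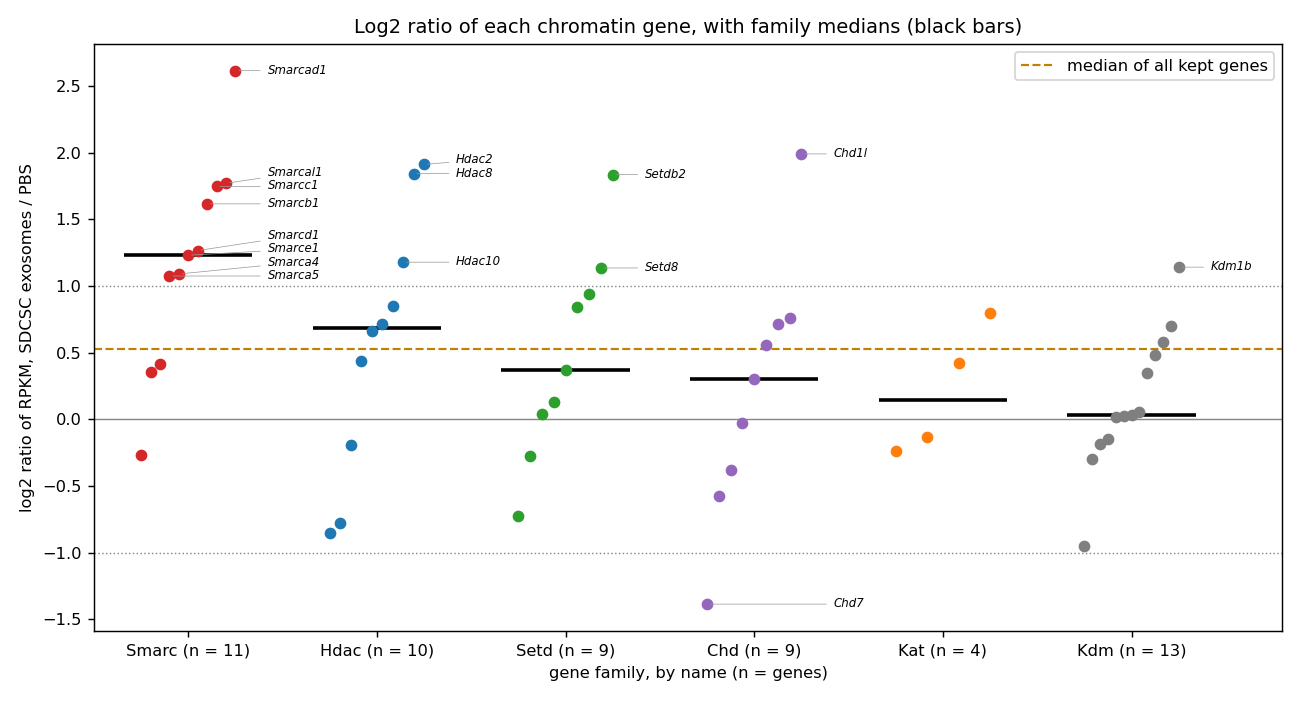
Log2 ratio of RPKM (SDCSC exosomes over PBS, 1 library each) for each of the 56 chromatin genes, by family; points are genes, black bars family medians, the dashed line the median of all 9698 genes kept at 0.53, and dotted lines the 2-fold limits. The Smarc bar at 1.23 stands above the dashed line and the Kdm bar at 0.03 below it, and Chd7 is alone below the lower limit.

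The SWI/SNF complexes, also called BAF complexes, are built around 1 of a pair of ATPases, Smarca2 or Smarca4, with a shared set of core subunits. Smarca4 was at 4.44 RPKM in PBS and 9.45 with exosomes, a log2 ratio of 1.09 with a 95% counting interval of 1.01 to 1.17. Relative to genes of the same level its log2 ratio was 0.41. Smarca2 was at 17.03 and 14.2 RPKM, a log2 ratio of -0.27. The sum of both was 21.5 RPKM in PBS and 23.6 with exosomes, while Smarca4 went from 20.7% to 40.0% of it.

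Among the core subunits 4 of 6 rose past 2-fold, and 3 of these (not Smarce1) had a mean level between 1 and 5 RPKM, where 49.8% of all genes passed that limit. Relative to genes of the same level 0 of the 4 stayed past 2-fold, with log2 ratios of 0.76 for Smarcc1, 0.68 for Smarcb1, 0.64 for Smarce1 and 0.30 for Smarcd1. Parentheses after a pair of RPKM values (PBS first, exosomes second) give the log2 ratio. For genes past a limit and some near one, its 95% counting interval follows. The scaffold subunit Smarcc1 was at 1.66 RPKM in PBS and 5.57 with exosomes (log2 ratio 1.75, interval 1.62 to 1.87). Smarcb1, a core subunit that contacts the nucleosome, was at 2.02 and 6.19 RPKM (1.62, 1.51 to 1.72). Smarce1, which carries a DNA-binding HMG domain, was at 5.52 and 12.9 RPKM (1.23, 1.13 to 1.33). These 3 subunits were at or below 5.52 RPKM in PBS, and each rose more than 2-fold. Smarcd1, one of 3 interchangeable Smarcd subunits, was at 2.08 and 5 RPKM (1.27, 1.11 to 1.42). Its relative Smarcd2, a subunit needed for granulocyte development, was the highest Smarc gene in both libraries, at 33.4 and 44.7 RPKM (0.42). Smarcc2, the other scaffold subunit, was second among the core subunits, at 19.7 and 25.2 RPKM (0.36). The core subunits with the highest PBS levels, Smarcd2 and Smarcc2, were thus those that stayed within 2-fold, and their log2 ratios lay below the median of all genes. Relative to genes of the same level, Smarcd2 was at 0.26 and Smarcc2 at 0.05, both above 0 like the other 4.

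The remaining Smarc genes do not belong to SWI/SNF. Smarca5, the ATPase of the ISWI remodellers that space nucleosomes, was at 9.9 RPKM in PBS and 20.9 with exosomes (1.07, 1.02 to 1.13). Smarcad1, a remodeller that acts in heterochromatin and in the processing of broken DNA ends, was at 0.33 and 2.02 RPKM (2.61, 2.33 to 2.92). Smarcal1, which rewinds DNA at stalled replication forks, was at 0.61 and 2.08 RPKM (1.77, 1.52 to 2.03). Smarcad1 had the highest ratio of all 56 chromatin genes, 6.12, and was the 1 past 4-fold, from a PBS level near the 0.25 limit. The gene lies at chr6:65042583-65116061 on mouse build GRCm38.

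The 250 bases before the start of 4 SWI/SNF genes and of Hdac2 are shown because Smarca4, Smarcb1 and Smarcc1 rose together while Smarca2 did not, and Hdac2 had the highest ratio among deacetylases. The sequences are from RefSeq on GRCm38.p6, read 5′ to 3′ on the gene's strand. The GC box letters GGGCGG, or CCGCCC on the other strand, are in capitals. The starts are those of RefSeq and can differ from the GENCODE gene positions given for other genes here. By GENCODE, Smarcc1 begins at chr9:110117708, so its window lies inside the gene. The windows of Smarca2 and Smarcb1 reach past their GENCODE starts.
Smarca4 (chr9:21615919-21616168, plus strand): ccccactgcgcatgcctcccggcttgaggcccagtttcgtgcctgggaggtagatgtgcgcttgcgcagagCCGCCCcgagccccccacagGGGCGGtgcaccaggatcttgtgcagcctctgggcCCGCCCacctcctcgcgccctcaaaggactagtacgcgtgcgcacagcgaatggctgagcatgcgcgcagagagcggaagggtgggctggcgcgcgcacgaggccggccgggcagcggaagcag
Smarca2 (chr19:26604910-26605159, plus strand): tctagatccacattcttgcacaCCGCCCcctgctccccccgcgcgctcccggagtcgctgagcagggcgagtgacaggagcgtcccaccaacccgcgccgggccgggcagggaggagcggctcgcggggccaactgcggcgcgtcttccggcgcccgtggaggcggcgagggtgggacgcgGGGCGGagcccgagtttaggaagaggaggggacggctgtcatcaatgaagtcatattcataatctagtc
Smarcb1 (chr10:75921615-75921864, minus strand): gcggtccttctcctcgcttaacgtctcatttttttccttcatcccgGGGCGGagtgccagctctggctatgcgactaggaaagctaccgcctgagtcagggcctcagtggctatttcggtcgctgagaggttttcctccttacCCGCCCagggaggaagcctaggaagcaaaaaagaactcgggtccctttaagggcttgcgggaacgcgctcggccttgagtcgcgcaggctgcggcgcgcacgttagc
Smarcc1 (chr9:110131774-110132023, plus strand): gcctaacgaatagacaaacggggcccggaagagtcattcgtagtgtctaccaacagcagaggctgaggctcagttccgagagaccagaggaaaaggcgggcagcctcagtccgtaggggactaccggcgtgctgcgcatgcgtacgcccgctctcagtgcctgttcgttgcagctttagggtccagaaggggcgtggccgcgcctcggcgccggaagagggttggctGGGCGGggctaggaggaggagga
Hdac2 (chr10:36974294-36974543, plus strand): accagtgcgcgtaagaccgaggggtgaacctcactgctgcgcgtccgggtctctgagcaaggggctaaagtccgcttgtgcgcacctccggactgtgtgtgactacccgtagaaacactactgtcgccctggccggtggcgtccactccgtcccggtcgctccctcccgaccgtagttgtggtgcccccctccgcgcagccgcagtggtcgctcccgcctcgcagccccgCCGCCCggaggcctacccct
A RefSeq promoter entry was found for 42 of the 56 genes. GGGCGG on either strand was present in 28 of these 42, in 9 of the 13 that were past 2-fold and in 19 of the 29 others, and in 35.4% of all 27025 genes with an entry. CCAAT, read on both strands, was present in 19 of the 42, in 4 of the 13 and 15 of the 29, and in 37.5% of all genes. The letters CACGTG were present in 3 of the 42 and 6.86% of all genes. CCGGAAGT and TGACGTCA were present in 0 of the 42, and in 3.23% and 1.77% of all genes. The 27025 genes were not limited to genes kept, as the 42 were, so these shares describe unlike sets of genes. The GC box letters stood before Smarca2 as well as before Smarca4, and a match describes the letters in these windows only.

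Histone deacetylases fall into classes by sequence and are described by class. All 4 class I enzymes, which are mainly nuclear, were above a ratio of 1 on the deposited scale, with Hdac3 alone below it once the median of all genes was removed, and had a summed RPKM of 27.3 in PBS and 46.8 with exosomes. Hdac2 was at 2.22 and 8.35 RPKM (1.91, 1.77 to 2.06). Its close paralogue Hdac1, with which it forms the catalytic core of NuRD, Sin3 and CoREST, was at 13.7 and 22.4 RPKM (0.71). Hdac2 thereby went from 14.0% to 27.2% of the sum of the pair. Hdac8, which deacetylates the cohesin ring, was at 0.29 and 1.04 RPKM (1.84, 1.37 to 2.37). Hdac3, another nuclear deacetylase, was at 11.1 and 15.04 RPKM (0.44). The median log2 ratio of class I was 1.28, which was 0.75 above the median of all genes.

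Class IIa enzymes shuttle between nucleus and cytoplasm in response to signals and bind MEF2 factors. For 3 of the 4 the RPKM was lower with exosomes, and the median log2 ratio was -0.49, or -1.01 relative to all genes. Hdac5, the highest of the Hdac genes in both libraries, was at 39.1 and 34.2 RPKM (-0.20). Hdac4 was at 15.6 and 8.66 RPKM (-0.85), and Hdac9 at 0.77 and 0.45 RPKM (-0.77). Both lay just outside the lower limit, at ratios of 0.554 and 0.584. Hdac7 had the higher value with exosomes, at 2.27 and 4.09 RPKM (0.85, or -0.15 relative to genes of the same level), and took 90.1% of the Hdac7 and Hdac9 sum with exosomes against 74.7% in PBS. The class IIb gene Hdac10, which encodes a polyamine deacetylase, rose from 2.55 to 5.77 RPKM (1.18, 1.03 to 1.33). Relative to genes of the same level its log2 ratio was 0.35. Hdac6, the tubulin deacetylase, was at 0.77 and 1.22 RPKM (0.66).

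**Figure D2:**
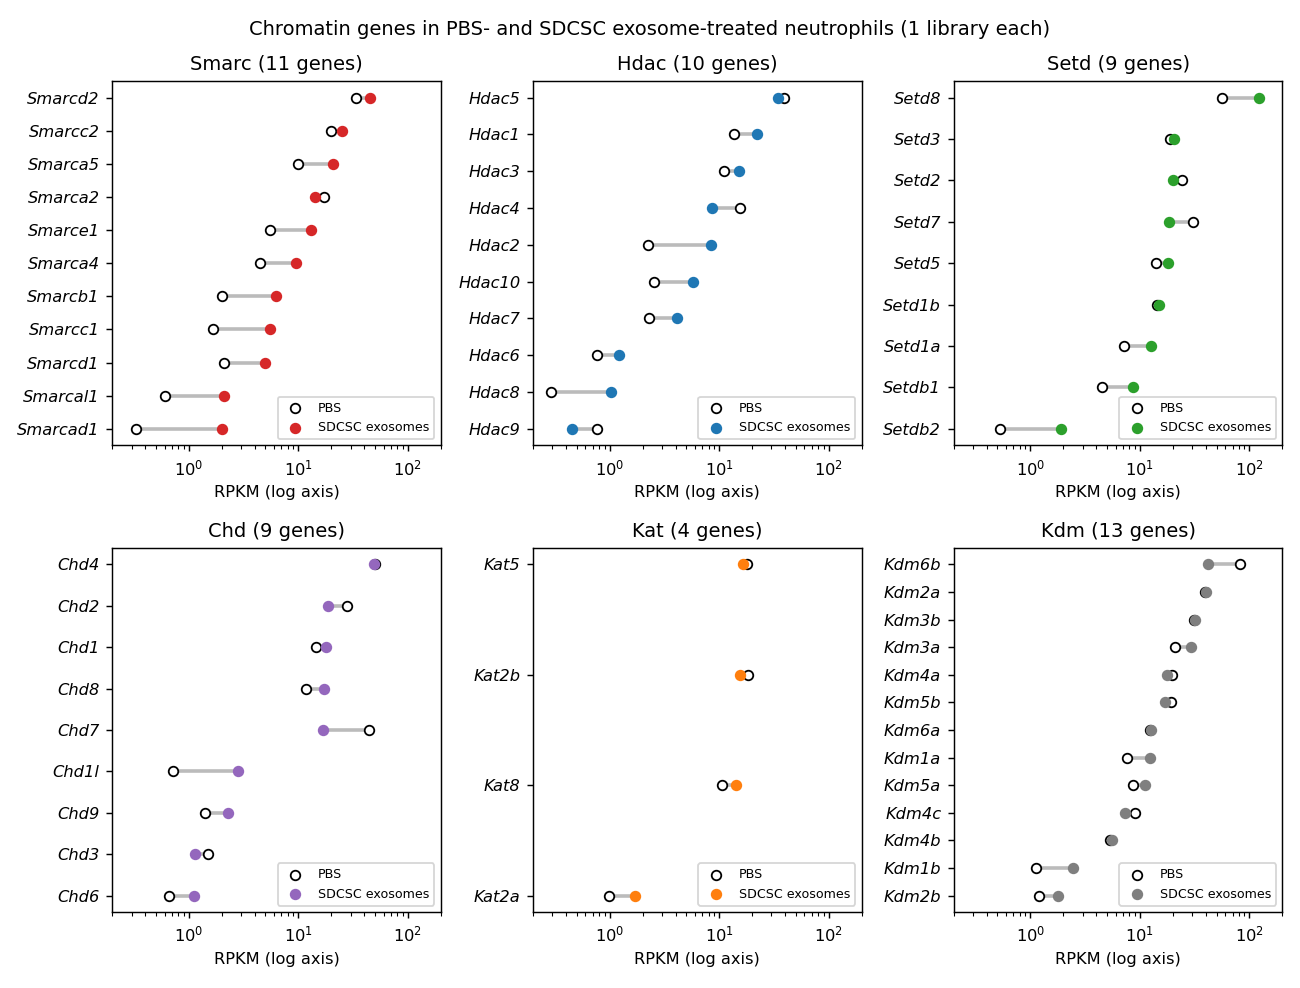
RPKM of each of the 56 chromatin genes on a log axis, one panel per family, with open circles for the PBS library and filled circles for the SDCSC exosome library. Most Smarc circles shift right, with Smarca2 moving left from 17.03 to 14.2 RPKM, while Chd7 and Kdm6b are the longest shifts to the left.

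Among the methyltransferases, Setd8 stood out by level. It is the enzyme that places a single methyl group on lysine 20 of histone H4 and is now named Kmt5a, at chr5:124439930-124462308 on GRCm38. Setd8 was at 55.8 RPKM in PBS and 122 with exosomes (1.13, 1.10 to 1.17), which made it the highest of the 56 genes with exosomes and the only one past 2-fold above 50 RPKM. Setdb1 and Setdb2 methylate lysine 9 of histone H3, a mark of silent chromatin. Setdb2 was at 0.53 and 1.89 RPKM (1.83, 1.53 to 2.15). Setdb1 was at 4.5 and 8.64 RPKM (0.94, 0.86 to 1.02), just under the upper limit at a ratio of 1.92. The interval of Setdb1 held that limit. Both thus had higher values with exosomes, and their sum was 5.03 RPKM in PBS and 10.5 with exosomes.

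The other Setd genes stayed within 2-fold. Setd1a and Setd1b are alternative catalytic subunits of the COMPASS complexes that methylate lysine 4 of histone H3 at promoters. Setd1a was at 7.1 and 12.7 RPKM (0.84), and Setd1b at 14.3 and 14.8 RPKM (0.04). Setd1a accordingly went from 33.1% to 46.3% of the pair. Setd2, the trimethylase of lysine 36 of histone H3 in transcribed genes, was at 24.3 and 20.1 RPKM (-0.28), and Setd7, which also methylates proteins other than histones, at 30.4 and 18.4 RPKM (-0.73). Setd3, an actin histidine methyltransferase, was at 18.8 and 20.6 RPKM (0.13), and Setd5 at 13.9 and 18.01 RPKM (0.37). Setd7 had the lowest ratio of the family.

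Chd7, a chromodomain helicase that binds enhancers, was the 1 chromatin gene past the lower limit. The gene lies at chr4:8690406-8867659 on GRCm38. It was at 43.9 RPKM in PBS and 16.8 with exosomes, a log2 ratio of -1.38 with a counting interval of -1.41 to -1.36. Its paralogue Chd8 was at 11.7 and 17.2 RPKM (0.56). Chd7 was 3.75 times Chd8 in PBS and 0.977 times Chd8 with exosomes, and this was the 1 pair of the 19 compared in which the higher partner changed. The other subfamily III helicases were low in both libraries, Chd6 at 0.66 and 1.12 RPKM (0.76) and Chd9 at 1.4 and 2.3 RPKM (0.72). Chd1l, a remodeller activated by poly(ADP-ribose) at DNA breaks, rose from 0.71 to 2.82 RPKM (1.99, 1.72 to 2.26).

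The NuRD helicase Chd4 was the third highest chromatin gene in PBS and the second with exosomes, at 49.9 and 49.01 RPKM (-0.03). Chd3, its alternative in NuRD, was at 1.5 and 1.15 RPKM (-0.38) and made up under 3% of the pair in both libraries. Chd1, which binds methylated lysine 4 of histone H3, was at 14.6 and 17.98 RPKM (0.31), and Chd2 at 27.7 and 18.7 RPKM (-0.57). Chd2 was the higher of this pair in PBS, and the pair was nearly level with exosomes, Chd1 holding 49.1% of the sum against 34.4%.

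Lysine demethylases had the highest summed RPKM of the 6 families in PBS, at 257, and summed to 231 with exosomes. Kdm1a and Kdm1b are flavin-dependent enzymes that act on lysine 4 of histone H3. Kdm1b rose from 1.12 to 2.47 RPKM (1.14, 0.97 to 1.32). It was the only one of the 16 called genes whose counting interval held the 2-fold limit. Relative to genes of the same level its log2 ratio was 0.006. Kdm1a was at 7.65 and 12.4 RPKM (0.70). Kdm5a and Kdm5b, which remove methyl groups from the same residue, had values of 8.7 and 11.1 RPKM (0.35) and of 19.3 and 16.9 RPKM (-0.19). On the deposited scale Kdm5a was thus higher and Kdm5b lower, and relative to the median of all genes both were lower.

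Kdm6b, a demethylase of lysine 27 of histone H3 known as an inflammation-induced gene in macrophages, was the highest of the 56 genes in PBS and lies at chr11:69398508-69413675 on GRCm38. It was at 81.3 RPKM in PBS and 42.2 with exosomes (-0.95, -0.97 to -0.92), which is just outside the lower limit at a ratio of 0.519. Kdm6a, which acts on the same residue and is X-linked, was at 12.3 and 12.6 RPKM (0.03). Both together went from 93.6 to 54.8 RPKM, and Kdm6a from 13.2% to 23.0% of that sum.

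The enzymes for lysine 9 and lysine 36 of histone H3 stayed within 1.5-fold on the deposited scale. Kdm3a was at 20.7 and 28.9 RPKM (0.48) and Kdm3b at 31.2 and 31.7 RPKM (0.02). Kdm4a was at 19.5 and 17.6 RPKM (-0.15), Kdm4b at 5.34 and 5.55 (0.06) and Kdm4c at 8.99 and 7.3 (-0.30). These 5 had a summed RPKM of 85.7 and 91.0, and all 5 lay below the median ratio of all genes. Kdm2a, which binds unmethylated CpG, was at 39.4 and 40.02 RPKM (0.02), and its paralogue Kdm2b at 1.2 and 1.79 RPKM (0.58).

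The 4 lysine acetyltransferases kept had nearly equal summed RPKM in the libraries, 48.0 in PBS and 47.9 with exosomes. Kat2a and Kat2b are alternative acetyltransferases of the SAGA and ATAC complexes. Kat2b was at 18.4 and 15.6 RPKM (-0.24), and Kat2a at 0.99 and 1.72 RPKM (0.80), so Kat2a made up 5.11% of the pair in PBS and 9.94% with exosomes. Kat5, the enzyme of the TIP60 complex, was at 18.03 and 16.4 RPKM (-0.13), and Kat8, which acetylates lysine 16 of histone H4, at 10.5 and 14.2 RPKM (0.42).

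The remaining 10 of the 66 features did not reach the limit of 0.25 RPKM in both libraries. Setd4, at 0.22 and 0.60 RPKM, and Setd6, at 0.22 and 0.46, reached it in the exosome library only. Hdac11, the single class IV deacetylase, was at 0.14 and 0.03 RPKM, and Smarcd3, the third Smarcd subunit, at 0.13 and 0.10. Kdm4d was at 0.05 and 0.06 RPKM, Smarca1, the second ISWI ATPase, at 0.01 and 0.00312, and Chd5, a helicase of neurons, at 0.0032 and 0.00799. Kdm4dl and the pseudogenes Kat2b-ps and Smarca5-ps were listed at 0 in both libraries. At the median length of the chromatin genes, 3 reads correspond to 0.00860 RPKM in PBS and 0.00716 with exosomes, so a value of 0 limits the level and does not show absence.

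A share within a pair does not move when a whole library is rescaled by 1 factor. Over the 19 related pairs with both partners kept, the partner with the lower mean RPKM took a larger share of the pair with exosomes in 16 and a smaller share in 3. Across all genes kept, ratios tended to be higher at lower level (Spearman's rho -0.28). No count over pairs of other genes was made, so the 16 cannot be told apart from that trend. A shift of over 10 percentage points was seen in 7 pairs, namely Chd7 with Chd8, Smarca2 with Smarca4, Hdac7 with Hdac9, Chd1 with Chd2, Hdac1 with Hdac2, Setd1a with Setd1b and Smarcc1 with Smarcc2. The 3 exceptions were Hdac4 with Hdac5, Hdac7 with Hdac9 and Chd3 with Chd4, where the lower partner lost share.

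**Figure D3:**
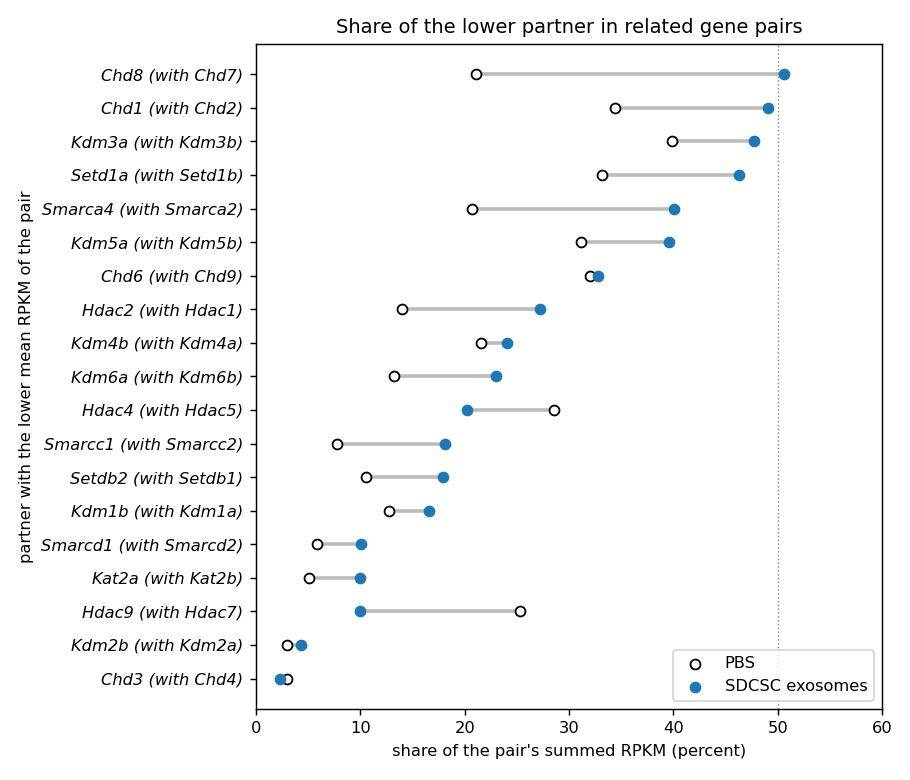
Share (percent) that the partner with the lower mean RPKM held of the summed RPKM of each of 19 related gene pairs, with open circles for PBS and filled circles for SDCSC exosomes (1 library each). In 16 pairs the filled circle lies to the right, and for Chd8 it passes the dotted line at 50%, from 21.1% to 50.6%.

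The ratio of a chromatin gene went with its level and its length. Across the 56 genes Spearman's rho between the log2 ratio and the mean log2 RPKM was -0.57, against -0.28 across all 9698 genes, and between the log2 ratio and the longest transcript it was -0.45, against -0.11 across the 9559 genes with a length. These correlations are across genes that share the same 2 libraries, genes are not independent replicates, and the RPKM values enter both the ratio and the level. Between 1 and 5 RPKM, 9 of 14 chromatin genes were at least 2-fold higher, against 49.8% of all genes in that range. Between 10 and 50 RPKM it was 1 of 27, against 17.0%. Of the 11 chromatin genes with a transcript of at least 8000 bases 0 passed the upper limit, against 22.1% of all genes of that length.

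**Figure D4:**
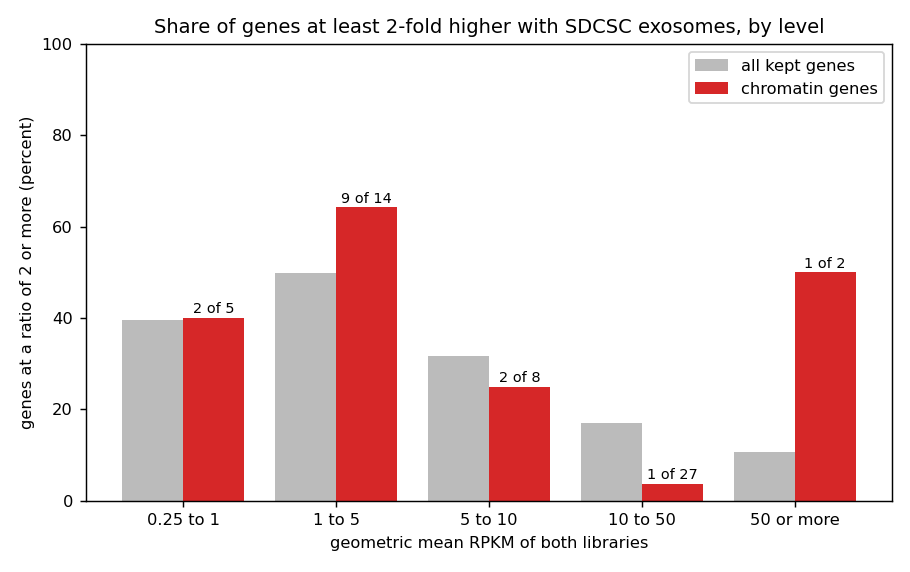
Percent of genes at a ratio of 2 or more (SDCSC exosomes over PBS) by the geometric mean RPKM of both libraries, for all 9698 genes kept (grey) and the 56 chromatin genes (red, with the number of genes above each bar). The grey bars fall from 49.8% between 1 and 5 RPKM to 10.8% at 50 RPKM or more, and 1 of the 27 chromatin genes between 10 and 50 RPKM is past the limit.

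Relative to all genes, and to genes of the same level, fewer chromatin genes were past the upper limit and more past the lower one than on the deposited scale. After the median of all genes was removed, 8 chromatin genes were higher and 6 lower past 2-fold, against 16.8% and 13.2% of all genes. The 8 were Smarcad1, Chd1l, Hdac2, Hdac8, Setdb2, Smarcal1, Smarcc1 and Smarcb1, and the 6 were Chd7, Kdm6b, Hdac4, Hdac9, Setd7 and Chd2. After the median of the 500 genes nearest in level was removed, 4 were higher and 6 lower, against 12.6% and 13.7% of all genes. The 4 were Smarcad1 at a level-centred log2 ratio of 1.53, Hdac2 at 1.14, Setd8 at 1.13 and Hdac8 at 1.12. The 6 were Chd7 at -1.62, Hdac9 at -1.58, Chd3 at -1.54, Hdac4 at -1.22, Setd7 at -1.03 and Kdm6b at -1.002. The Smarc median remained 0.64 above genes of the same level, with 10 of its 11 genes above 0, while the Kdm and Chd medians were both -0.34 and the Kat median -0.42.

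The genes just inside the upper limit were Smarca5, Smarca4 and Setd8, at ratios of 2.11, 2.13 and 2.20, and those just outside were Setdb1, Hdac7 and Setd1a, at 1.92, 1.80 and 1.79. Counting intervals, which rest on estimated reads and cover counting error only, lay above 0 for 36 of the 56 genes and below 0 for 15, and held 0 for 5. These counts of intervals are on the deposited scale, and no such count over all genes is given here. By the sign of the log2 ratio alone, 40 of the 56 were above 0 and 16 below. Of all 9698 genes kept, 7079 were above 0 and 2601 below by that measure. Because the counting intervals leave out the spread between cultures, an interval that excludes 0 describes these 2 libraries and not the treatment.

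Partners of these enzymes that carry other names were listed by complex, and 114 of them were kept. Of these, 29 were at least 2-fold higher and 2 at most at a ratio of 0.5, against 31.5% and 5.62% of all genes, and the median log2 ratio was 0.39, against 0.53 for all genes. The SWI/SNF subunits outside the Smarc name had 3 of 14 past 2-fold, Actl6a (2.09 to 6.39 RPKM), Bcl7c (4.11 to 8.68) and Ss18 (7.38 to 15.5), and a median of 0.37, below that of the Smarc genes at 1.23. Among them the DNA-binding subunits Arid1a, at 30.5 and 33.9 RPKM, and Arid2, at 7.5 and 10.1, stayed within 2-fold. Partners of Hdac and Chd enzymes had a median log2 ratio of 0.13, and among them the histone chaperone Rbbp7 rose from 4.6 to 11.2 RPKM.

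The counts for the next lists are small and are to be read against the same 31.5% of all genes. Among ISWI partners 2 of 9 rose past 2-fold, the histone-fold proteins Pole3 (1.36 to 6.82 RPKM) and Chrac1 (5.79 to 15.9). On the deposited scale 6 of these 9 were higher and 3 lower. In the INO80, SRCAP and TIP60 list 4 of 11 rose past 2-fold, and 7 were higher and 4 lower on the deposited scale. Those past 2-fold were the ATPases Ruvbl1 (1.15 to 5.97 RPKM) and Ruvbl2 (10.96 to 25.8), Dmap1 (1.44 to 3.93) and Ino80 (3.22 to 7.06). In the MLL and COMPASS list, which holds the partners of Setd1a and Setd1b, 3 of 11 rose past 2-fold. They were Ash2l (0.66 to 4.09 RPKM), Hcfc1 (2.37 to 8.17) and Dpy30 (2.04 to 6.87). On the deposited scale 7 of the 11 were higher and 4 lower. Wdr5, the highest of the list in PBS, went from 28.2 to 17.6 RPKM (-0.68). The PRC2 list, the complex that places the mark which Kdm6a and Kdm6b remove, had 3 of 8 higher and 1 lower past 2-fold. On the deposited scale 6 of these 8 were higher and 2 lower. The methyltransferase Ezh2 went from 1.23 to 2.5 RPKM, a log2 ratio of -0.11 relative to genes of the same level. Its alternative Ezh1 was higher in both libraries, at 20.5 and 16.8 RPKM (-0.29), and stayed within 2-fold. Aebp2 went from 4.1 to 8.69 RPKM and Mtf2 from 2.95 to 5.95, while Phf1 fell from 98.01 to 41.6 RPKM. The median log2 ratios of these 4 lists were 0.13, 0.40, 0.39 and 0.55, in the order given.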

How the data were processed

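mRNA of 2 samples was measured, 1 of PBS-treated and 1 of SDCSC exosome-treated neutrophils, on TruSeq libraries sequenced on an Illumina HiSeq. Reads were trimmed at Phred 20 and processed with CLC Genomics Workbench by the authors, whose deposited tables give each feature's RPKM. The build mm10 is from the submitters' processing notes; gene model, strand use and the counting of multiply mapped reads are not given in the sources used here, so reads could be split between near-identical paralogues. Values above 0.01 are rounded to 2 decimals, and 25 features stood as dates or numbers and were never named.

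Genes reaching 0.25 RPKM in each library were kept, and called at a ratio of at least 2 or at most 0.5 with no pseudocount; the RPKM and fold limits are those in the heading of the study's own gene list. With 1 library per group no test was made. Depth was estimated as the commonest total implied by features below 0.01 RPKM standing for 1 read, using the longest GENCODE release 21 transcript (GRCm38): 319 of 995 such features gave the PBS total and 363 of 1159 the exosome total. Where the authors' gene model was shorter, estimated reads are too high and the intervals too narrow. Exact Clopper-Pearson 95% intervals rest on these estimated reads. Level centring removed the median of the 500 genes nearest in mean log2 RPKM. The families, 10 partner lists, role groups, pairs and marker lists were chosen with earlier results of these data known. Every gene kept could be named, and partner genes only past 2-fold and at most 4 a list. Arid1a, Arid2, Carm1, Ezh1, Prmt2, Prmt3, Prmt6 and Wdr5 were named after their values were seen. Symbols with older names, such as Setd8, were matched through RefSeq synonyms. Scripts were tested on simulated data and used Python 3.11.15, NumPy 2.4.6, pandas 2.3.3, SciPy 1.17.1 and matplotlib 3.10.9. The result for 1 partner gene is not reported here. Alternatives were other scalings, filters, a pseudocount and other fold limits.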

Additional observations from a re-analysis of the deposited data

How the results depend on the processing

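No paired analysis was possible because each group holds 1 library, and for the same reason no library could be left out. The count of chromatin genes at least 2-fold higher was 15 as reported and 8 with the median of all genes removed. It was 8 after subtraction of a trimmed mean, 4 with level centring and 8 with a pseudocount of 1 RPKM. Of all 9698 genes kept, 3056 were at least 2-fold higher as reported. In the same order, the alternatives gave 1634, 1594, 1222 and 1976. The count at most at a ratio of 0.5, 1 as reported, was 6 under each of the 3 centrings. For all genes kept it was 545 as reported, and 1282, 1322 and 1331 under these centrings. At a limit of 4-fold the counts were 1 and 0, against 826 and 111 of all 9698 genes. At 1.5-fold they were 24 and 5, against 4586 and 1092. The median log2 ratio of the 56 genes, 0.43, changed sign to -0.096 (median removed), -0.111 (trimmed mean removed) and -0.109 (level centring). Scaling each library by a single factor leaves a family's distance from the median of all genes at its value by construction. Under the 4 other alternatives, level centring, both filters and the pseudocount, the Smarc median stayed above that of all genes by 0.55 to 0.66, and Kat in place of Kdm was lowest with level centring (-0.42 against -0.34) and at RPKM of at least 1 (-0.58 against -0.42), while the Hdac and Setd medians lay close enough to it that level centring put Hdac at -0.04 and Setd at 0.01 and the looser filter put Setd at 0.08. Of the 16 called genes, Chd7, Hdac2 and Smarcad1 (3) were past 2-fold under each scaling, filter and pseudocount that gave a value. Genes with RPKM under 1 rest on the fewest reads, Hdac8 on an estimated 43.3 in PBS.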

Other observations

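Of 19 other lysine and arginine methyltransferases kept, 7 were at least 2-fold higher with exosomes and 0 at a ratio of 0.5 or less, with a median log2 ratio of 0.82, against 0.53 for all genes. The share of all genes at least 2-fold higher was 31.5%, and it was 49.8% between 1 and 5 RPKM, where the median level of the list (3.08 RPKM) lies. The highest ratios of the list were those of some arginine methyltransferases: Prmt7 went from 0.38 to 2.74 RPKM, Prmt5 from 0.58 to 2.63 and Prmt1 from 3.46 to 13.8. Others of this class rose less, Prmt3 from 2.12 to 4.48 RPKM, Carm1 from 3.69 to 4.67 and Prmt2 from 0.32 to 0.48. Prmt6 missed the filter at 0.22 and 0.28 RPKM. Dot1l, the methyltransferase of lysine 79 on histone H3, went from 2.8 to 9.34 RPKM. Relative to genes of the same level the median of this list was -0.04. Of 7 sirtuins, which deacetylate proteins with NAD as a cofactor, 2 rose past 2-fold. Sirt6 went from 2.84 to 8.76 RPKM and Sirt5 from 0.31 to 0.9. On the deposited scale 6 of the 7 were higher and 1 lower.

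Acetyltransferases and readers outside the Kat name had 2 of 12 higher and 1 lower past 2-fold. Their median log2 ratio was -0.04, against 0.53 for all genes. The counts in this paragraph are small and are to be read against 31.5% of all genes higher and 5.62% lower. Hat1, which acetylates new histone H4, went from 2.83 to 11.2 RPKM and Taf1 from 3.46 to 7.43, while Ing4, a reader of methylated histone H3, went from 75.2 to 37.3. Of 5 genes of DNA methylation and its removal, Tet2, an oxidase of methylated cytosine, was the 1 past 2-fold, from 5.14 to 13.01 RPKM. Some 5 genes of the Kat and Kdm families stood under older names and so were no members: Myst2 (8.08 and 11.1 RPKM), Myst3 (26.4 and 28.2), Myst4 (1.72 and 1.6), Jhdm1d (68.1 and 56.3) and Jmjd5 (1.07 and 1.25), with 0 of the 5 past 2-fold.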
